A study of Rattus norvegicus with 30 samples.

Results

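The genes described here are 42 rat genes of DNA replication and S phase, chosen by name. They cover the MCM helicase ring, origin licensing, helicase activation, the replicative polymerases and primase, the sliding clamp and its loader, single-strand binding and Okazaki fragment joining, nucleotide supply, chromatin behind the fork, and the control of S phase entry. Through the transcript that each probe was designed to, 37 of the 42 were matched to 43 probes of a rat expression array, out of 26912 genes or unnamed transcripts measured. Mcm5, Uhrf1, E2f8, Chaf1a and Rpa1 were not matched and are not analysed here. Of the 37, 24 were well above background on all 30 arrays as the scanner software judged it, 25 on every rat array, and 27 on enough arrays to be tested in at least 1 comparison.

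Liver RNA of male animals was hybridised to 1-colour arrays, 1 array per sample. Rats of the outbred Crl:CD(SD) stock (SD rats below) were fed control diet (4 arrays) or diet containing PB (phenobarbital) at 1000 ppm (4 arrays). CAR KO rats, which lack the constitutive androstane receptor encoded by Nr1i3, were fed the same diets (4 arrays each), as were chimeric mice with rat hepatocytes in the liver (7 arrays each). The labels call the replicates biological. Every animal received its diet for 7 days. The knockout allele, the strain of the host mice, the share of the liver that rat hepatocytes filled and the ages are not given in the sources used here. The host mouse keeps its own blood vessels, immune cells and other liver cells, and how far rat probes read mouse RNA was not tested.

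DNA replication begins when the origin recognition complex, Cdc6 and Cdt1 load the MCM ring onto DNA in G1. In S phase Cdc45 and the GINS complex turn that ring into a running helicase, Pcna clamps the polymerases to the template, and ribonucleotide reductase, thymidine kinase and thymidylate synthase supply the nucleotides. The E2F transcription factors and cyclin E switch these genes on together at the start of S phase. Hepatocytes of an adult liver are mostly out of cycle, and phenobarbital, through CAR, is known to drive a wave of hepatocyte replication in rodents during the first days of feeding.

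Promoter sequences are shown for the 4 genes that were higher with PB both in SD rats and in chimeric livers, Gins1, Mcm2, Rfc2 and Tk1, and for Mcm10, which was lower in both. Each window runs from 250 bases before to 50 after the gene's start in the RefSeq annotation of GRCr8, read 5′ to 3′ on the gene's own strand. Capitals mark 8-letter matches to the E2F letters TTTCCCGC, TTTCGCGC, TTTGCCGC or TTTGGCGC on either strand, which overlap where a match reads on both strands.
Gins1 (chr3:160184670-160184969, plus strand): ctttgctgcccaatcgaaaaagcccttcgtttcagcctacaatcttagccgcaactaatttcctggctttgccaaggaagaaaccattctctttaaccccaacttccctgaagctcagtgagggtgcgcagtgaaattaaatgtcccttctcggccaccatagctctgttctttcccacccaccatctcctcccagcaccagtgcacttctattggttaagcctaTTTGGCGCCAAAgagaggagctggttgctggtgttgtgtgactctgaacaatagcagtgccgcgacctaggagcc
Mcm2 (chr4:122918045-122918344, minus strand): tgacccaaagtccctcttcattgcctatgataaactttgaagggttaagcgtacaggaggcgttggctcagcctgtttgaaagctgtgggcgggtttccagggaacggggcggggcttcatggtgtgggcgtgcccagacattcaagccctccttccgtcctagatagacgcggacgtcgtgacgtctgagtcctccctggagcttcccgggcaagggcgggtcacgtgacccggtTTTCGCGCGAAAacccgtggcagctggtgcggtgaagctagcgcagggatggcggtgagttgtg
Rfc2 (chr12:27769976-27770275, minus strand): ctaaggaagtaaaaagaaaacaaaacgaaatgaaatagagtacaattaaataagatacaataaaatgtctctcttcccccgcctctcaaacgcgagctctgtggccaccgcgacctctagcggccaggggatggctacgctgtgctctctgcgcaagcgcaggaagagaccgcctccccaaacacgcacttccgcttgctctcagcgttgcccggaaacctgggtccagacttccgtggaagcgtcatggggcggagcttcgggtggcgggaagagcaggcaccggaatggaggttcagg
Tk1 (chr10:103544728-103545027, minus strand): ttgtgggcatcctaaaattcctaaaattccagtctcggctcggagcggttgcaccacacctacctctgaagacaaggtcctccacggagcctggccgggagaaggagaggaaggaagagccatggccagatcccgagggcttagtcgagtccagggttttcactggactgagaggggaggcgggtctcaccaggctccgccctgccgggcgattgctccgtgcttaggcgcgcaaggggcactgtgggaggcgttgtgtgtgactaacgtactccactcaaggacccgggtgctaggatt
Mcm10 (chr17:78175137-78175436, plus strand): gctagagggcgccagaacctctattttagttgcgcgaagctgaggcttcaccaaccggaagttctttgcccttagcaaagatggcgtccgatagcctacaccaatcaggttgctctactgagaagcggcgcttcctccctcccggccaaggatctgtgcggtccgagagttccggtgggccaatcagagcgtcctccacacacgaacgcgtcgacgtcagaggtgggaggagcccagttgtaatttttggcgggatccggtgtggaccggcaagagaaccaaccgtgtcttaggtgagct
Gins1 carried the letters TTTGGCGC with their first base at -25 from the start and Mcm2 carried TTTCGCGC at -14, each inside a stretch that also reads as a match on the other strand. The windows of Rfc2, Tk1 and Mcm10 held none of these letters, which says only that they are not in these windows. A window was given for 34 of the 42 genes, and 15 of them (44.1%) held a match, against 651 of 27457 genes with a window (2.37%). Among the genes higher with PB in SD rats 4 of the 6 with a window held one, and among those higher in chimeric livers 6 of 16 (37.5%) did. Of the members whose probes were too dim to test, 3 of the 7 with a window (42.9%) did.

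Levels are log2 of the processed signal minus the array's 75th percentile of it, so 0 is the 75th percentile of the array, and levels of different genes cannot be set against each other. The share of probes well above background ran from 58.7 to 67.0% on the rat arrays and from 50.8 to 58.1% on the chimeric arrays, and the mean 75th percentile of the signal was 437 to 506 over the rat groups and 256 and 280 in the chimeric groups. That share was on average lower on PB in every model. In SD rats it was 58.7 to 60.8% against 63.3 to 64.6% on control diet. Its mean was 62.7% against 65.9% in CAR KO rats and 53.0% against 55.3% in chimeric livers. Its part in the results was not tested. Cyp2b2, the CAR target P450 that marks PB exposure, rose from 2.95 ± 0.18 to 6.98 ± 0.335 in SD rats and from 0.77 ± 0.605 (SD, n = 7) to 6.57 ± 0.455 in chimeric livers. In CAR KO rats it stood at 2.87 ± 0.0865 and 2.78 ± 0.117 (SD, n = 4). The probe of Nr1i3 read 1.17 ± 0.495 in SD and 1.12 ± 0.299 in CAR KO controls (SD, n = 4). The sources used here do not place that probe relative to the deletion, so it does not check the labels.

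**Figure D1:**
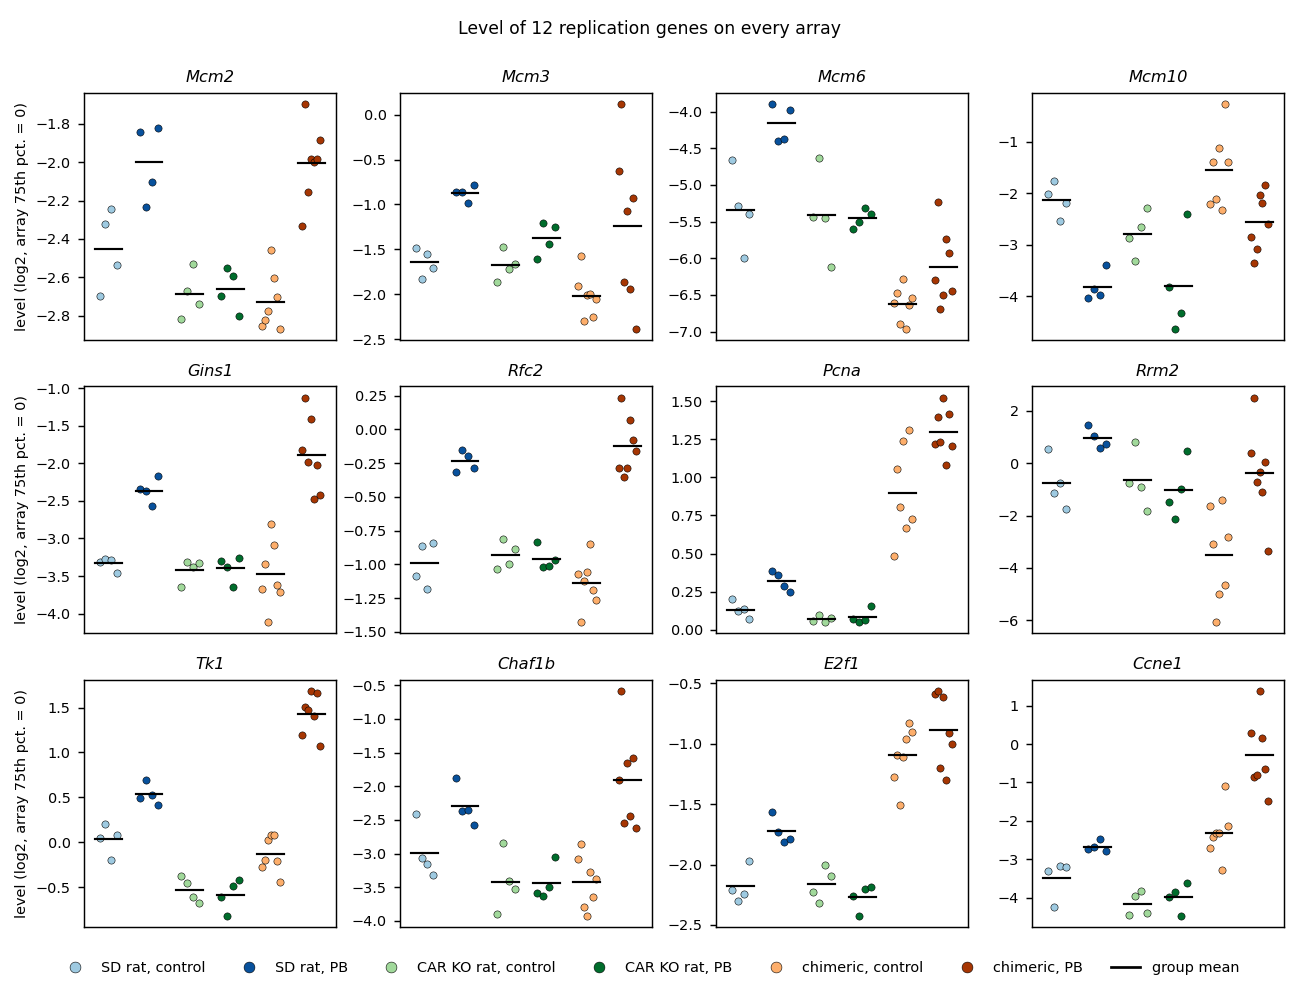
Level of 12 of the genes on every array (log2, with 0 at the array's 75th percentile), 1 point per array and a line at the group mean, for the 6 groups. Gins1, Rfc2 and Tk1 are higher on every PB array than on every control array in SD rats and in chimeric livers, Mcm10 is lower with PB in SD rats, and Mcm6 was not well above background on any chimeric array.

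In SD rats PB raised 7 of the 27 genes tested and lowered 1. The 7 were the MCM subunits Mcm2, Mcm3 and Mcm6, the GINS subunit Gins1, the clamp loader subunit Rfc2, thymidine kinase Tk1 and the transcription factor E2f1, and the gene that fell was Mcm10. Rises ran from 1.37-fold for Mcm2 and E2f1 to 2.26-fold for Mcm6. Over all 17002 genes tested in this comparison 4.31% were called, 2.51% higher and 1.8% lower. In all, 25 of the 27 differences were above 0, with a median of 0.24 against -0.02 over all genes, and the arrays of the 2 diets did not overlap for 12 of 27 genes (44.4%), against 11.7% of all genes. Adjusted p-values are limma's over all genes tested, differences are log2 PB minus control with their SE, and array values follow the replicate numbers. In bulk liver RNA, more cells in S phase and more RNA per such cell cannot be told apart.

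The MCM ring is the helicase that unwinds DNA at the fork. Mcm3 had levels of -1.48, -1.83, -1.56 and -1.71 in the SD controls and -0.86, -0.86, -0.98 and -0.78 with PB, a difference of 0.77 ± 0.106 (adjusted p = 0.000988). Mcm2 read -2.70, -2.32, -2.24 and -2.54 on control diet and -1.84, -2.23, -2.10 and -1.82 on PB (0.45 ± 0.115, adjusted p = 0.0419). For both, every PB array lay above every control array. Mcm6 read -4.66, -5.28, -6.0 and -5.40 on control diet, where 3 of 4 arrays measured it above background, and -3.90, -4.40, -4.37 and -3.98 on PB, where all did (1.17 ± 0.285, adjusted p = 0.0338). Mcm4 (-0.75, -1.12, -0.54 and -1.0 against -0.63, -0.64, -0.69 and -0.61) differed by 0.21 ± 0.123 and Mcm7 (0.95, 0.99, 1.13 and 1.0 against 1.06, 1.21, 1.13 and 0.99) by 0.08 ± 0.068. Their groups overlapped, and neither passed the test (adjusted p = 0.36 and 0.556). The calls of Mcm2 and Mcm6 rested on few arrays. Mcm2 missed the threshold without SD control 1 or 4 or PB 1, 3 or 4 (adjusted p 0.0635 to 0.103), and Mcm6 without control 2, 3 or 4 or PB 1, 3 or 4 (0.0582 to 0.0826). Averaged with its second probe, Mcm3 stood at 0.63 (adjusted p = 0.168). That second probe alone read 0.49 higher on PB, with no overlap between the SD diets. On the CAR KO PB arrays, which are in the same fit, its SD was 1.28 (n = 4).

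Helicase activation turns the loaded ring into a running fork. Gins1, a subunit of the GINS complex, was -3.31, -3.28, -3.29 and -3.46 on the control arrays and -2.35, -2.37, -2.57 and -2.17 on the PB arrays. Its groups were wide apart for their spread, with a difference of 0.97 ± 0.105 (1.95-fold, adjusted p = 0.000132), the smallest p among the 27 genes. Gins4, another GINS subunit, read -2.62, -2.54, -2.45 and -2.32 and then -2.29, -1.82, -2.45 and -2.36, with overlap (0.25 ± 0.121, adjusted p = 0.261). Cdc45, the third part of the active helicase, read -2.07, -2.37, -1.97 and -2.34 on control diet and -1.68, -1.52, -1.96 and -1.58 on PB. Its groups did not overlap, and its difference of 0.50 ± 0.136 missed the threshold (adjusted p = 0.0534). Without SD control 3 or PB 3 the same test gave an adjusted p of 0.0445 or 0.0394.

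Mcm10, which helps the helicase start and is not part of the ring, went the other way. Its levels were -2.01, -1.77, -2.53 and -2.19 in the SD controls and -4.04, -3.86, -3.97 and -3.40 with PB, lower on every PB array (-1.69 ± 0.379, adjusted p = 0.0229). A second, dimmer probe of Mcm10 was well above background on 3 SD control arrays and no SD PB array, so no difference is given for it. The call of the first probe missed the threshold without SD control 1 or 2 or PB 1, 2 or 3 (adjusted p 0.0505 to 0.0619).

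Of the 3 polymerase and primase genes tested, none passed in SD rats, with unadjusted p under 0.05 for 1. Pold1, the catalytic subunit of polymerase delta, read -1.86, -1.68, -1.57 and -1.75 against -1.50, -1.45, -1.70 and -1.49 (0.18 ± 0.0831, adjusted p = 0.237). Prim1, the primase that starts each fragment, read -0.43, -0.72, -0.20 and -0.59 against 0.27, -0.61, -0.58 and 0.37 (0.35 ± 0.207, adjusted p = 0.374). On PB the 4 arrays of Prim1 fell into a pair near 0.3 and a pair near -0.6, the latter within the control range. Pole, the catalytic subunit of polymerase epsilon, read -4.40, -4.50, -4.20 and -4.11 against -4.06, -4.55, -4.44 and -4.09 (0.02 ± 0.115, adjusted p = 0.949).

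The sliding clamp and its loader gave 1 call among 5. Rfc2, a subunit of the clamp loader, read -1.09, -0.86, -1.18 and -0.84 on control diet and -0.32, -0.15, -0.20 and -0.28 on PB, with no overlap (0.76 ± 0.084, adjusted p = 0.000152). The other loader subunits did not pass. Rfc3 read -0.66, -0.66, -0.46 and -0.47 against -0.66, -0.55, -0.58 and -0.36 (0.03 ± 0.0779), Rfc4 -2.56, -2.43, -2.45 and -2.35 against -2.29, -2.43, -2.32 and -2.19 (0.14 ± 0.0771) and Rfc5 -1.25, -1.04, -0.96 and -0.95 against -1.22, -1.09, -1.17 and -1.08 (-0.09 ± 0.0721). The clamp itself, Pcna, read 0.20, 0.12, 0.13 and 0.07 on control diet and 0.38, 0.36, 0.29 and 0.25 on PB. Its PB arrays lay above its control arrays, yet the difference was small (0.19 ± 0.0505, 1.14-fold) and missed the threshold (adjusted p = 0.0524). Without SD PB 4 its adjusted p was 0.0475.

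Genes that bind single strands and join Okazaki fragments did not pass in SD rats (limma called 0 of 3, with none at an unadjusted p under 0.05). Rpa2, of the single-strand binding complex, read -1.70, -1.77, -1.54 and -1.43 against -1.57, -1.44, -1.76 and -1.37 (0.08 ± 0.104). Fen1, the flap nuclease, read 0.64, 0.58, 0.63 and 0.82 against 1.10, 0.93, 0.50 and 1.11 (0.24 ± 0.166), and Lig1, the ligase, -0.17, 0.06, -0.23 and 0.00 against 0.07, -0.16, -0.12 and -0.05 (0.02 ± 0.088). The PB arrays of all 3 overlapped the controls.

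Nucleotide supply gave 1 call among 4. Tk1, which salvages thymidine, read 0.05, 0.21, -0.20 and 0.08 on control diet and 0.50, 0.69, 0.53 and 0.42 on PB, with no overlap (0.50 ± 0.106, adjusted p = 0.017; 0.0502 without SD PB 2). Rrm2, the subunit that limits ribonucleotide reductase in S phase, had the largest difference of the 27 genes and the widest spread. It read 0.56, -1.14, -0.75 and -1.75 on the control arrays and 1.47, 1.03, 0.57 and 0.73 on the PB arrays, and its difference of 1.72 ± 0.613 did not pass (adjusted p = 0.134). SD control 1 lay far above the other 3 controls, just under the lowest PB array. Tyms, thymidylate synthase, read -2.23, -1.88, -2.26 and -2.10 against -1.89, -2.06, -2.28 and -1.98 (0.06 ± 0.113), and Dut, the dUTPase, -0.39, -0.52, -0.53 and -0.53 against -0.41, -0.48, -0.35 and -0.49 (0.06 ± 0.0561). Both overlapped between diets.

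E2f1, which switches on many of these genes, rose. It read -2.21, -2.30, -2.24 and -1.97 on control diet and -1.56, -1.73, -1.81 and -1.79 on PB (0.46 ± 0.0921, adjusted p = 0.0125). A dimmer second probe of E2f1 was well above background on 2 SD control arrays and no SD PB array. Ccne1, cyclin E1, read -3.30, -4.25, -3.17 and -3.20 on control diet and -2.73, -2.69, -2.47 and -2.79 on PB. SD control 2 was far below the rest, the groups did not overlap, and the difference of 0.81 ± 0.235 missed the threshold (adjusted p = 0.0664). Chaf1b, of the complex that sets histones on new DNA, read -2.42, -3.06, -3.15 and -3.31 against -1.88, -2.37, -2.35 and -2.58. SD control 1 lay inside the PB range, and the difference was 0.69 ± 0.235 (adjusted p = 0.115).

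The 16 rat arrays shared 1 estimate of the spread. A fit on the 8 SD arrays alone called 4 members, and with all 30 arrays in 1 fit 4 were, with Gins1, Rfc2 and Mcm10 among them in both. Over all genes those fits called 1.09% and 1.18%, against 4.31% with the 16 rat arrays. Without SD PB 1 the count fell from 8 to 5. In both rat models the slide's first row held the controls and the other row the PB animals, and row and diet cannot be told apart.

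**Figure D2:**
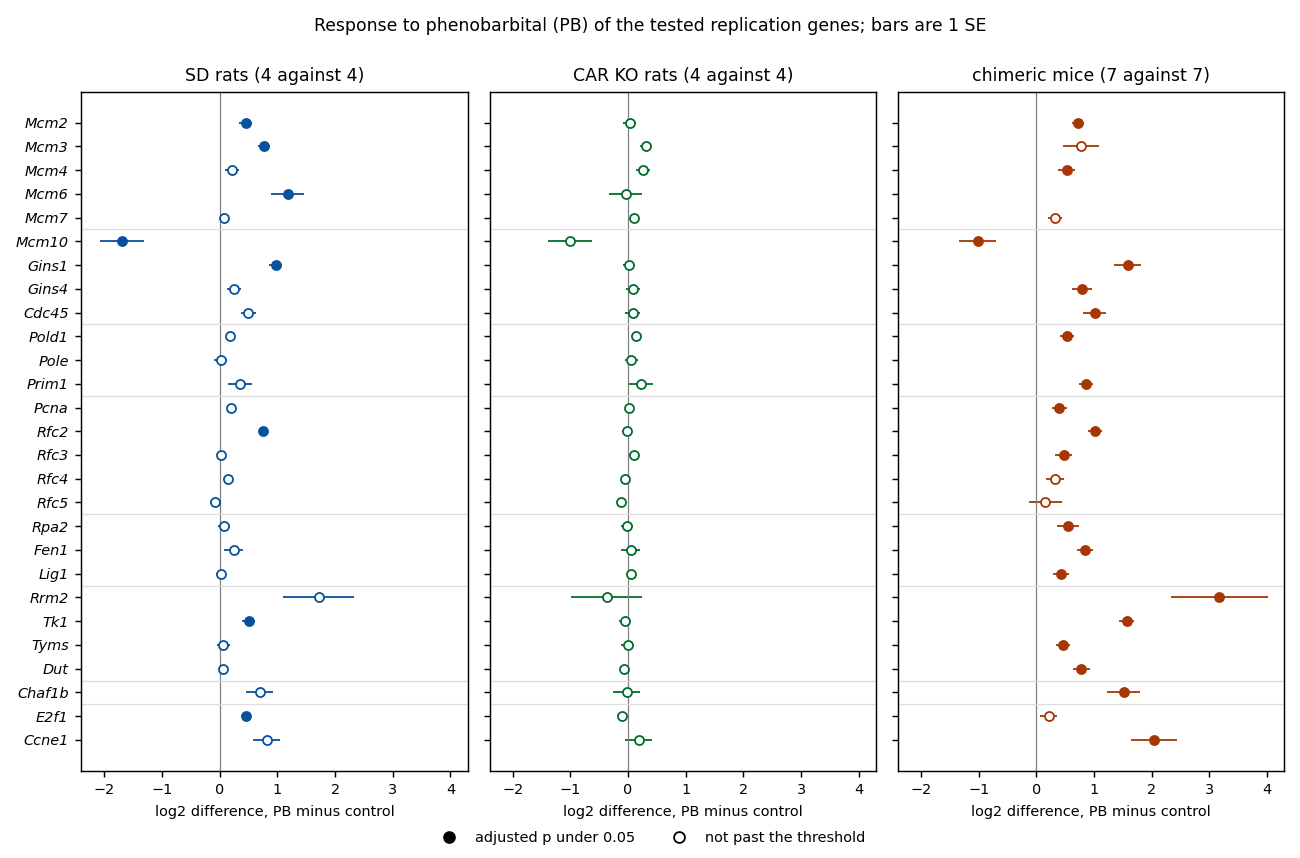
Log2 difference of PB minus control diet for the 27 genes tested (25 in chimeric mice), with bars of 1 SE, in the 3 models; filled points had an adjusted p under 0.05. In SD rats 7 genes were called higher and Mcm10 lower, in CAR KO rats no point is filled, and in chimeric mice 19 were called higher and Mcm10 lower.

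In CAR KO rats no member passed the test for PB: limma called 0 of 27, and 2 had an unadjusted p under 0.05. Over all 17543 genes 0.205% were called, 0.0513% higher and 0.154% lower. The median of the 27 differences was 0.02, against -0.02 over all genes, with 15 above 0 and 12 below. Mcm6, not called, was tested there only through the control group. The diets overlapped for every member, against 10.8% of all genes whose diets did not overlap. The 7 genes raised in SD rats ranged here from -0.11 for E2f1 to 0.31 for Mcm3.

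Gins1 had levels of -3.65, -3.31, -3.37 and -3.32 in the CAR KO controls and -3.30, -3.38, -3.65 and -3.26 with PB (0.02 ± 0.106, adjusted p = 0.958). Rfc2 read -1.03, -0.81, -1.0 and -0.89 against -0.83, -1.02, -1.02 and -0.96 (-0.02 ± 0.0842), and Tk1 -0.38, -0.46, -0.61 and -0.68 against -0.61, -0.82, -0.49 and -0.42 (-0.05 ± 0.106). The diets overlapped for all 3. E2f1 read -2.23, -2.32, -2.01 and -2.09 against -2.26, -2.42, -2.20 and -2.19 (-0.11 ± 0.0923), and Ccne1 -4.45, -3.97, -3.84 and -4.41 against -4.0, -3.85, -4.47 and -3.63 (0.18 ± 0.236). Mcm6, measured on 3 control and 2 PB arrays, read -5.43, -4.63, -5.45 and -6.12 against -5.59, -5.50, -5.32 and -5.40 (-0.04 ± 0.286). The diets overlapped for these 3 as well.

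The members with an unadjusted p under 0.05 were Mcm3 and Mcm10. Mcm3 read -1.86, -1.47, -1.72 and -1.66 against -1.60, -1.21, -1.44 and -1.25 (0.31 ± 0.106, adjusted p = 0.187), and Mcm10 read -2.88, -3.31, -2.66 and -2.30 against -3.83, -4.63, -4.32 and -2.4 (-1.01 ± 0.38, adjusted p = 0.215). For Mcm10, 3 of the 4 PB arrays lay below every control array and PB 4 lay among them. Its second probe was measured on 3 control arrays and no PB array.

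The rest of the ring differed little. Mcm2 read -2.82, -2.67, -2.53 and -2.74 against -2.70, -2.55, -2.59 and -2.80 (0.03 ± 0.115), Mcm4 -1.36, -1.08, -1.09 and -1.20 against -1.0, -0.63, -1.12 and -0.96 (0.25 ± 0.123) and Mcm7 0.69, 0.58, 0.49 and 0.56 against 0.54, 0.70, 0.71 and 0.75 (0.09 ± 0.0682). Gins4 read -2.63, -2.47, -2.56 and -2.55 against -2.67, -2.49, -2.41 and -2.30 (0.09 ± 0.122), and Cdc45 -2.63, -2.08, -2.4 and -2.43 against -2.37, -2.33, -2.46 and -2.06 (0.08 ± 0.136). None of these 5 passed, with adjusted p from 0.325 to 0.936. Rrm2 read -0.75, 0.83, -0.89 and -1.81 on control diet and -1.47, -2.13, -0.98 and 0.48 on PB (-0.37 ± 0.615), again with a wide spread in both groups, and Chaf1b -3.90, -2.84, -3.40 and -3.52 against -3.58, -3.63, -3.50 and -3.04 (-0.02 ± 0.235).

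None of the polymerase, clamp and fragment joining genes passed either. Pold1 read -2.32, -2.08, -2.05 and -2.04 against -2.08, -1.98, -2.0 and -1.90 (0.13 ± 0.0834), Pole -4.19, -4.11, -4.30 and -4.38 against -4.13, -4.23, -4.15 and -4.25 (0.05 ± 0.115), and Prim1 -0.50, -0.10, -0.63 and -0.30 against -0.06, -0.24, -0.13 and -0.19 (0.23 ± 0.208). Pcna read 0.06, 0.10, 0.05 and 0.08 against 0.07, 0.05, 0.07 and 0.16 (0.02 ± 0.0507). It had the narrowest spread of any member on the CAR KO control arrays (SD 0.0214, n = 4). Rfc3 read -0.57, -0.59, -0.55 and -0.62 against -0.42, -0.44, -0.43 and -0.66 (0.10 ± 0.0781), Rfc4 -2.36, -2.22, -2.31 and -2.23 against -2.24, -2.52, -2.20 and -2.35 (-0.05 ± 0.0774) and Rfc5 -1.51, -1.56, -1.49 and -1.44 against -1.53, -1.73, -1.68 and -1.57 (-0.12 ± 0.0724). The diets of the loader genes overlapped, although 3 of the 4 PB arrays of Rfc3 lay above its controls. Rpa2 read -2.32, -1.99, -1.96 and -2.01 against -2.08, -2.04, -2.21 and -2.05 (-0.02 ± 0.104), Fen1 -0.11, 0.26, 0.55 and 0.60 against 0.25, 0.22, 0.33 and 0.68 (0.04 ± 0.166), and Lig1 -0.28, 0.03, -0.06 and -0.13 against 0.04, -0.02, -0.20 and -0.09 (0.04 ± 0.0882). CAR KO control 1 was the lowest Fen1 array of all 30. Tyms read -1.87, -1.93, -2.10 and -2.27 against -1.96, -1.96, -2.23 and -2.07 (-0.01 ± 0.113), and Dut -0.60, -0.59, -0.59 and -0.65 against -0.60, -0.77, -0.63 and -0.70 (-0.07 ± 0.0563).

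The CAR KO response minus the SD response was tested in the same fit. It passed for 2 of 27 members, both lower in CAR KO rats: Rfc2 (-0.78 ± 0.119, adjusted p = 0.00811) and Gins1 (-0.95 ± 0.15, adjusted p = 0.00948). Over all 17804 genes 0.534% passed, 0.107% higher and 0.427% lower. In all, 21 of the 27 differences were below 0, with a median of -0.17 against -0.01 over all genes. Over the 26 members measured on at least 75% of the arrays of every group compared, all but Mcm6, the median was -0.17 as well and 2 passed. E2f1 (-0.56 ± 0.131, adjusted p = 0.0807), Tk1 (-0.55 ± 0.15, 0.144), Mcm3 (-0.47 ± 0.15, 0.198), Mcm6 (-1.22 ± 0.405, 0.219), Rrm2 (-2.09 ± 0.871, 0.321) and Mcm2 (-0.42 ± 0.163, 0.295) did not pass. For these 6 a difference between SD and CAR KO rats was therefore not shown. For Mcm10 it was 0.68 ± 0.538 (adjusted p = 0.627). With all 30 arrays in 1 fit neither Rfc2 nor Gins1 passed (adjusted p = 0.056 and 0.596), and without SD control 4 E2f1 also passed (0.039).

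In chimeric livers PB raised 19 of the 25 members tested and lowered 1. Among the 24 measured on at least 75% of the arrays of both diets 18 rose, and the largest rises were those of cyclin E1 (4.13-fold), Gins1 (3-fold), Tk1 (2.96-fold) and Chaf1b (2.86-fold), and Mcm10 fell 2.03-fold. The reductase subunit Rrm2, also called higher, entered the test only through the PB group. Mcm3, Mcm7, Rfc4, Rfc5 and E2f1 did not pass. Over all 14441 genes tested 42.7% were called, 19.3% higher and 23.4% lower. Differences of 24 of the 25 members were above 0, with a median of 0.72 against 0.06 over all genes (0.63 over the 24 without Rrm2, against 0.09 over the genes measured in both groups), and 9 of 25 (36%) did not overlap between diets, against 12.7% of all genes. On these arrays diet nearly equals slide: all 7 controls and PB 1 shared a slide, and PB 2 to 7 lay on another.

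Within the slide that held both diets, PB 1 lay above the mean of the 7 controls for 23 of the 25 members and above every control for 17. These counts rest on 1 PB array and were not made over all genes. PB 1 was among the arrays that gave the 19 calls, so no count over those genes alone is given. The members' median of PB 1 minus the control mean was 0.55, against -0.02 over all genes tested on that slide. For PB 2 to 7 the members' median was 0.67. Slide as a block leaves PB 1 as the only PB array set against controls of its slide, as do that slide's 8 arrays alone. Such fits assume that the lone PB array varies like the controls. They cannot separate slide from diet, and no call from them is given.

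Among the ring subunits, Mcm2 ran from -2.87 to -2.46 (median -2.78) on the control arrays and from -2.33 to -1.70 (median -1.98) on the PB arrays, with no overlap (0.72 ± 0.111, adjusted p = 0.00015). Mcm4 ran from -0.70 to -0.05 (median -0.45) and from -0.27 to 0.50 (median 0.09), with overlap (0.52 ± 0.145, adjusted p = 0.00905). PB 1 differed from the control mean by 0.39 for Mcm2 and 0.30 for Mcm4. Mcm3 ran from -2.30 to -1.57 (median -2.01) on control diet and from -2.39 to 0.12 (median -1.08) on PB, and missed the threshold (0.77 ± 0.311, adjusted p = 0.0576). Its PB arrays read -0.63, 0.12, -1.86, -1.08, -1.95, -0.93 and -2.39: 4 were above every control, and PB 3, 5 and 7 were within or below the control range. Mcm7 ran from 1.21 to 1.73 (median 1.37) and from 1.58 to 2.24 (median 1.68) (0.32 ± 0.128, adjusted p = 0.0537). Mcm6 was not well above background on any of the 14 arrays and was not tested.

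Of the activation genes, Gins1 ran from -4.11 to -2.81 (median -3.61) on control diet and from -2.47 to -1.13 (median -1.98) on PB, again with no overlap (1.58 ± 0.232, adjusted p = 0.000111). PB 1 stood 1.65 above the control mean. Cdc45 ran from -2.84 to -1.90 (median -2.18) and from -1.86 to -0.50 (median -1.20) (1.01 ± 0.202, adjusted p = 0.001; PB 1 by 1.26), and its groups did not overlap either. Gins4 ran from -3.38 to -2.35 (median -2.90) and from -2.49 to -1.64 (median -2.06) (0.79 ± 0.175, adjusted p = 0.00205; PB 1 by 1.19). Mcm10 ran from -2.33 to -0.28 (median -1.39) on control diet and from -3.36 to -1.83 (median -2.61) on PB (-1.02 ± 0.319, adjusted p = 0.0177), and PB 1 lay below every control. Mcm10 missed the threshold after normexp (adjusted p = 0.0506), quantile normalization (0.0529), median scaling (0.0727) and with array weights (0.0608).

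Both polymerase genes tested rose: Pold1 ran from -1.73 to -1.31 (median -1.48) and from -1.34 to -0.56 (median -1.05) (0.53 ± 0.123, adjusted p = 0.00281). The primase Prim1 ran from -1.03 to -0.43 (median -0.76) and from -0.22 to 0.47 (median 0.08), with no overlap (0.86 ± 0.125, adjusted p = 0.000109). PB 1 differed by 0.16 for Pold1, within the control range, and by 0.85 for Prim1. In the loader, Rfc2 ran from -1.43 to -0.85 (median -1.12) and from -0.36 to 0.24 (median -0.16) with no overlap (1.02 ± 0.119, adjusted p = 2.25e-05; PB 1 by 0.86), and Rfc3 from -0.69 to 0.03 (median -0.18) and from -0.02 to 0.63 (median 0.15) (0.47 ± 0.145, adjusted p = 0.0163). Rfc4 (0.33 ± 0.152, adjusted p = 0.0977) and Rfc5 (0.15 ± 0.284, adjusted p = 0.689) did not pass; Rfc4 ran from -2.99 to -2.20 (median -2.70) and from -2.57 to -1.99 (median -2.14), Rfc5 from -3.25 to -1.81 (median -2.46) and from -2.81 to -1.20 (median -2.67). The clamp Pcna rose modestly, from 0.49 to 1.31 (median 0.81) against from 1.08 to 1.52 (median 1.23) (0.40 ± 0.136, adjusted p = 0.0276). It missed the threshold without control 1, 3, 5 or 7 or PB 2, 4 or 6 (adjusted p 0.0503 to 0.0593).

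The fragment joining genes all passed here. Fen1 ran from 0.67 to 1.25 (median 1.18) and from 1.66 to 2.31 (median 1.76) with no overlap (0.85 ± 0.14, adjusted p = 0.000245; PB 1 by 0.76). Lig1 ran from -0.22 to 0.36 (median -0.06) and from 0.18 to 0.85 (median 0.34) (0.43 ± 0.139, adjusted p = 0.0217). Rpa2 ran from -2.72 to -1.98 (median -2.23) and from -2.24 to -1.04 (median -1.82) (0.54 ± 0.185, adjusted p = 0.0269). For Lig1 and Rpa2, PB 1 lay within the control range, and Rpa2 missed the threshold without control 2 or 6 or PB 2 or 5 (adjusted p 0.0507 to 0.0563).

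Among the nucleotide supply genes Tk1 had the smallest p of the 25 members. It ran from -0.45 to 0.08 (median -0.19) on control diet and from 1.07 to 1.69 (median 1.47) on PB, a gap of nearly 1 between the groups (1.56 ± 0.125, adjusted p = 7.18e-07). For Tk1, PB 1 stood 1.33 above the control mean. Dut ran from -1.64 to -0.88 (median -1.24) and from -0.68 to -0.13 (median -0.47) without overlap (0.78 ± 0.139, adjusted p = 0.000426; PB 1 by 0.53), and Tyms from -1.85 to -1.31 (median -1.65) and from -1.33 to -0.83 (median -1.23) (0.46 ± 0.119, adjusted p = 0.00573; PB 1 by 0.55). Rrm2 ran from -6.08 to -1.40 (median -3.10) on control diet, where 4 of 7 arrays measured it, and from -3.34 to 2.51 (median -0.32) on PB, where all did (3.17 ± 0.839, adjusted p = 0.00675). Its rise is not counted as support, and PB 7 lay within the control range.

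Of the entry and chromatin genes, Ccne1 ran from -3.28 to -1.09 (median -2.32) and from -1.47 to 1.38 (median -0.65) (2.05 ± 0.397, adjusted p = 0.000808), and PB 1 stood 2.62 above the control mean. Only control 6 overlapped the PB arrays. Chaf1b ran from -3.92 to -2.86 (median -3.38) and from -2.62 to -0.58 (median -1.91) with no overlap (1.51 ± 0.284, adjusted p = 0.000624; PB 1 by 1.51). E2f1, called in SD rats, ran from -1.50 to -0.82 (median -1.09) and from -1.30 to -0.56 (median -0.91) here and did not pass (0.21 ± 0.147, adjusted p = 0.26).

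**Figure D3:**
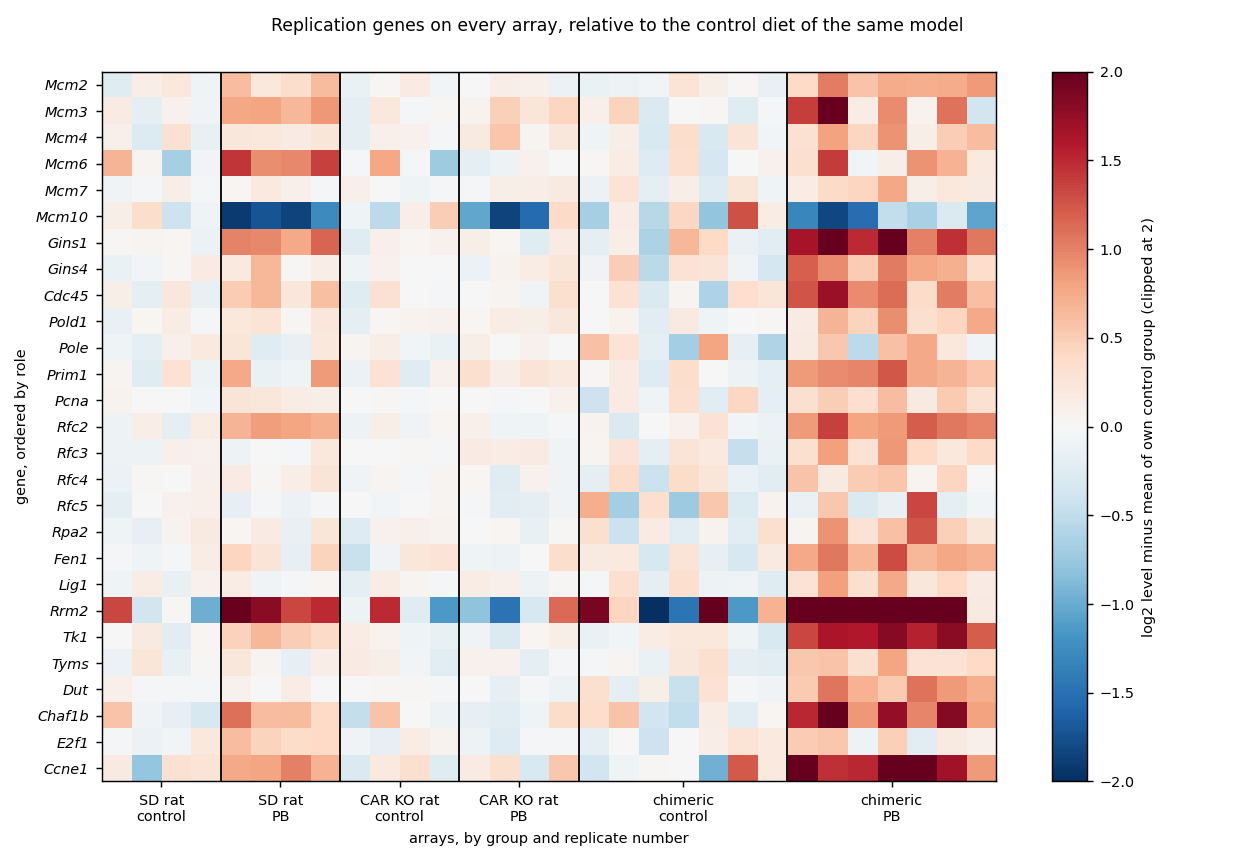
Each tested gene (rows, by role) on each of the 30 arrays (columns, by group and replicate number), as log2 level minus the mean of the control group of the same model, clipped at 2. The PB columns of the chimeric livers are mostly red from PB 1 on. Those of the SD rats are red for the 7 called genes and blue for Mcm10. They are also red for genes not called, among them Rrm2, Ccne1, Chaf1b and Cdc45. No gene was called in the CAR KO rats, where Rrm2 goes both ways between PB arrays and Mcm10 is mostly blue. Mcm6 and Pole were not well above background on any chimeric array.

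Markers of other cell types moved with PB in chimeric livers. Of the macrophage and Kupffer cell markers 4 of 6 tested fell, with the log2 of the list's summed level at 5.35 to 5.79 on control diet and 4.66 to 5.51 on PB, and Marco never above background. Both T, NK and B cell markers tested fell (-0.52 to -0.20 against -1.37 to -0.49), with Cd3e, Cd3g, Cd2, Cd8a and Cd4 never above background. Of the stellate cell markers 4 of 8 fell and 1 rose (2.19 to 2.79 against 1.91 to 2.86), and 1 of 3 endothelial markers fell (4.06 to 4.65 against 3.85 to 4.37). Erythroid markers rose for 3 of 5 tested (7.66 to 8.65 against 8.34 to 9.16), with Hbb and Epor never above background. The hepatocyte markers gave 1 higher and 1 lower of 10. In SD rats limma called none of the macrophage (0 of 9, none with an unadjusted p under 0.05), T, NK and B cell (0 of 7, 2) or endothelial markers (0 of 5, 1), 1 of 8 erythroid markers higher, and 1 of 10 hepatocyte markers lower. The erythroid list as a whole went the other way there: 2 of the 7 markers measured in both groups were above 0, with a median of -0.58. Over all genes tested 42.7% were called in chimeric livers and 4.31% in SD rats. The part of these shifts in the results was not tested.

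Of the members called higher, Mcm2, Gins1, Rfc2 and Tk1 were called in both SD rats and chimeric livers, which is 57.1% of the 7 in SD rats and 21.1% of the 19 in chimeric livers, and Mcm10 was called lower in both. Across the 25 members tested in both, the SD and the chimeric differences had a Pearson r of 0.888 and a Spearman rho of 0.796, with 24 of the same sign. Without Mcm10 and Rrm2, the members farthest from the median in SD rats, r was 0.774, and across 14191 genes tested in both it was 0.405. The CAR KO and chimeric differences had r = 0.246 over 25 members and 0.379 over 14302 genes. Members are not replicates and share arrays, so these are descriptions.

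The chimeric response minus the SD response was tested over all 30 arrays. It passed for 2 of 27 members, both higher in chimeric livers: Tk1 by 1.07 ± 0.172 (adjusted p = 0.000255) and Dut by 0.72 ± 0.17 (adjusted p = 0.0039). Over all genes 18.8% passed, 6.28% higher and 12.6% lower. In all, 24 of the 27 differences were above 0, with a median of 0.41 against 0.08 over all genes. Mcm6 and Pole, measured on no chimeric array, and Rrm2, measured on 4 of 7 chimeric controls, are among the 27 without being measured in every group, and none of the 3 was called. Without them 22 of 24 were above 0, with a median of 0.43 against 0.11 over the genes measured in every group. Rrm2 (1.45 ± 1.18, adjusted p = 0.433), Ccne1 (1.23 ± 0.536, 0.11), Chaf1b (0.82 ± 0.409, 0.167), Gins1 (0.62 ± 0.298, 0.154) and E2f1 (-0.24 ± 0.192, 0.414) did not pass. This count moved with the processing: median scaling, which shifted the median of all genes from 0.08 to 0.35, gave 16, and array weights gave 11. Without chimeric PB 1 it was 4, with Fen1 and Pold1 added (adjusted p = 0.0463 and 0.0391). With slide as a block PB 1 was the only chimeric PB array set against controls of its slide, so no count is given. The members' median was then 0.39, against -0.01 over all genes. The share of all genes moved too, from 18.8% to 25.4% after median scaling and 37.3% with array weights.

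**Figure D4:**
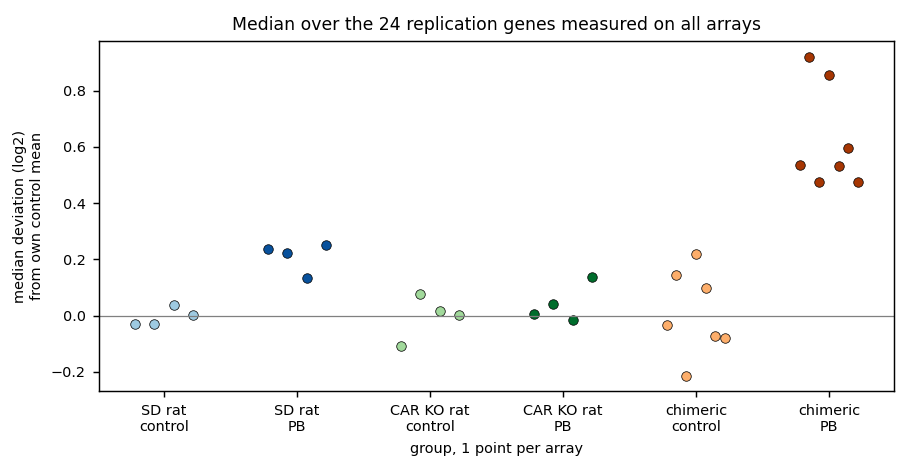
Median over the 24 genes well above background on all 30 arrays of the log2 deviation from the control mean of the same model, 1 point per array. The 4 SD PB arrays lie from 0.13 to 0.25, the 4 CAR KO PB arrays from -0.01 to 0.14 and the 7 chimeric PB arrays from 0.47 to 0.92, against -0.21 to 0.22 for the chimeric controls.

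By array, the median deviation of the 24 genes measured everywhere ran from -0.03 to 0.04 on the SD control arrays and from 0.13 to 0.25 on PB. On the CAR KO arrays it ran from -0.11 to 0.08 on control diet and from -0.01 to 0.14 on PB, so the ranges overlapped. On the chimeric arrays it ran from -0.21 to 0.22 and from 0.47 to 0.92, with PB 2 and PB 4 the highest (0.92 and 0.86) and PB 1, on the control slide, at 0.54. Of the 24 genes, 22 were above their control mean on chimeric PB 1, and 16 to 21 were on each SD PB array. The spread between arrays of a group was wider in chimeric livers, with a median SD over the 24 genes of 0.265 on control diet against 0.151 in SD and 0.136 in CAR KO controls.

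On control diet CAR KO livers were lower than SD livers in 6 of 27 members and higher in none. Those 6 were Tk1 (-0.57 ± 0.106, adjusted p = 0.00103), Ccne1 (-0.68 ± 0.236, 0.0372), Rpa2 (-0.46 ± 0.104, 0.00386), Rfc5 (-0.45 ± 0.0724, 0.000319), Mcm7 (-0.44 ± 0.0683, 0.000251) and Pold1 (-0.40 ± 0.0834, 0.00211). Their falls were between 1.32-fold and 1.61-fold. Over all 17716 genes 34.1% were called, 14.4% higher and 19.7% lower. The arrays of the 2 genotypes did not overlap for 6 of 27 members (22.2%), against 34.3% of all genes, so the members' shares are near or under those of all genes. The members' median was -0.08, that of all genes -0.08. Each rat model lay on its own slide, so slide and genotype cannot be told apart. The Ccne1 call missed the threshold without SD control 1, 3 or 4 or CAR KO control 1 or 4 (adjusted p 0.0858 to 0.102). Among marker lists, 6 of 10 hepatocyte and 3 of 9 macrophage markers were also lower in CAR KO controls, and their part was not tested.

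Chimeric livers on control diet differed from SD livers in 14 of 27 members, 7 higher and 7 lower, where 74.6% of 17148 genes were called, 38.7% higher and 35.9% lower. The groups did not overlap for 9 of 27 members (33.3%), against 60.9% of all genes. Rrm2, Pole and Mcm6, 3 of the 7 lower, entered the test only through the SD group; over the 24 members measured in both groups 7 were higher and 4 lower. Higher were the regulators Ccne1 (1.16 ± 0.379, adjusted p = 0.00782) and E2f1 (1.09 ± 0.136, 7.9e-08), the clamp Pcna (0.76 ± 0.116, 1.79e-06), Tyms (0.49 ± 0.12, 0.000625), Mcm4 (0.45 ± 0.144, 0.00633), Mcm7 (0.44 ± 0.113, 0.000966) and Rfc3 (0.33 ± 0.13, 0.0259). Lower were Rrm2, measured on 4 of 7 chimeric controls (-2.75 ± 0.837, 0.0046), Rfc5 (-1.48 ± 0.25, 8.41e-06), Dut (-0.71 ± 0.12, 7.86e-06), Rpa2 (-0.69 ± 0.171, 0.000779) and Mcm2 (-0.28 ± 0.114, 0.0318). Pole and Mcm6 were not well above background on any chimeric array, so no p-value is given for them. Against the lowest signal above background on each chimeric array, their SD means stood 2.05-fold and 1.19-fold higher. These gaps hold for this scale only, and after normexp background correction both genes stood higher in chimeric livers (0.23 and 0.34).

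The direction of several of these differences depended on the scale. After normexp background correction 14 members were higher and 4 lower, after quantile normalization 9 and 6, and after median scaling, which shifted the median of all genes from 0.04 to 0.44, 11 and 5. Mcm2 then stood at 0.047, 0.083 and 0.13 instead of -0.28, with no call. After normexp Mcm6, Pole, Gins1 and Rfc4 were called higher (0.34, 0.23, 0.31 and 0.21). Model and slide cannot be told apart here either, and Mcm2 and Rfc3 also missed the threshold on leaving out single arrays. Mcm2 did so without chimeric control 1, 2 or 7 or SD control 2 or 3 (adjusted p 0.0513 to 0.137), Rfc3 without chimeric control 2 or 4 or SD control 1 or 2 (0.0539 to 0.0715). Rat markers of most other liver cells were lower in the same comparison, counted where measured in both groups. Of the macrophage markers 5 of 6 were lower (median -1.46), and of the stellate cell markers 5 of 8 were lower and 3 higher (median -2.44). Of the endothelial markers 2 of 3 were lower, and of the T, NK and B cell markers 1 of 2. A further 3 macrophage and 5 T, NK and B cell markers were measured in only 1 of the groups and are not counted. Of the cholangiocyte markers 1 of 3 was lower and 2 were higher. Over all genes measured in both groups 73.6% were called, and the part of these markers was not tested.

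**Figure D5:**
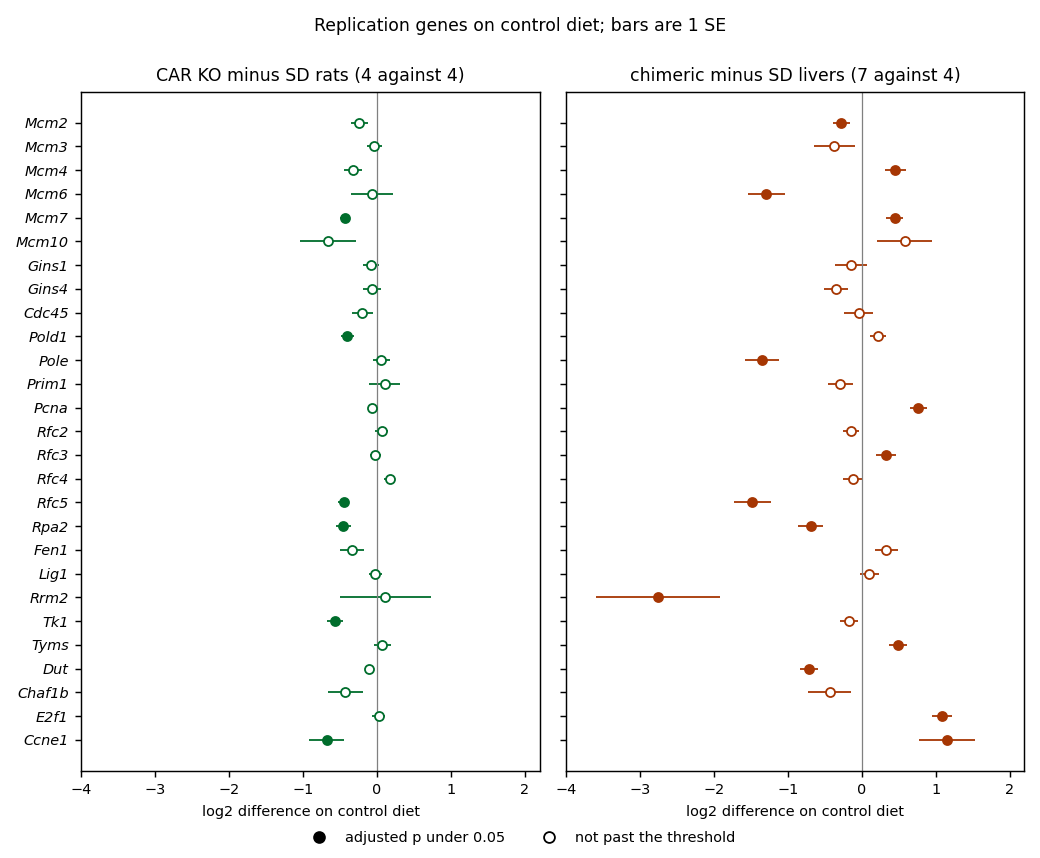
Log2 difference on control diet of CAR KO minus SD rats and of chimeric minus SD livers, with bars of 1 SE; filled points had an adjusted p under 0.05. The 6 filled points of the CAR KO comparison all lie below 0, and the 14 of the chimeric comparison lie on both sides; the chimeric points of Mcm6 and Pole come from probes not well above background there.

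The 10 members tested in no comparison were the origin licensing genes Orc1, Orc6, Cdc6 and Cdt1, the GINS subunits Gins2 and Gins3, the polymerase alpha subunits Pola1 and Pola2, the reductase subunit Rrm1 and cyclin E2 (Ccne2). Their probes were well above background on 0 to 4 of the 30 arrays. Cdc6, the loader of the ring, was measured on 2 of 7 chimeric PB arrays and on no chimeric control array. Rrm1, the large reductase subunit, was measured on 2 SD control arrays and no SD PB array. Cdt1 and Pola2 were measured on none of the 30 arrays. No level is given for these genes, and the whole licensing step is therefore not described by these arrays.

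Other genes of the same pathways were counted from lists kept apart from the 42. Of 44 other replication genes tested in SD rats 3 rose and 0 fell in limma, with 14 at an unadjusted p under 0.05 and a median of 0.09. Those 3 were Dtymk, thymidylate kinase (0.34 ± 0.0584, adjusted p = 0.00505), Gmnn, the inhibitor of Cdt1 (0.57 ± 0.147, 0.0433), and Rnaseh2b, a subunit of the nuclease that removes RNA from DNA (0.33 ± 0.0846, 0.0443). In CAR KO rats 0 of 45 passed, with 5 at an unadjusted p under 0.05. In chimeric livers 12 of 37 rose and 3 fell (median 0.29), among them Rnaseh2b (1.22 ± 0.135, adjusted p = 1.46e-05), the polymerase delta subunit Pold2 (0.70 ± 0.123, 0.000392) and Rpa3, of the single-strand binding complex (0.58 ± 0.112, 0.000742). The helicase gene Recql4 fell (-1.05 ± 0.163, adjusted p = 0.000155). On control diet 1 was higher and 16 lower in CAR KO than in SD rats among the 44 measured in both groups, among them the origin gene Orc2 (-0.62 ± 0.0905, adjusted p = 0.000138). The called shares over all genes given above apply to each.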

How the data were processed

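Liver RNA of male animals, 30 samples in 6 groups, was measured on Agilent 1-colour arrays. Per the labels' protocols, livers kept in RNAlater were extracted with Isogen and RNeasy kits. Per the file headers, the arrays were read with Agilent Feature Extraction 10.7.3.1 and protocol GE1_107_Sep09. The deposited intensity values are that software's processed signal, background-subtracted, detrended across the array and not scaled between arrays, with median and local background intensity beside it. The authors' deposited series matrix holds log2 values with a correlation of 1 with log2 of the processed signal on every array; the sources used here do not state the offset taken from each array.

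Control spots and outlier spots were left out, the spots of a probe averaged, and log2 values set to each array's 75th percentile. Probes were named through a RefSeq table for assembly GRCr8, used for names and promoter windows only. A gene was represented by its probe of highest mean over the 16 rat arrays and tested where it was well above background on at least 75% of the arrays of a group compared. Tests were limma 3.58.1 (lmFit, eBayes; R 4.3.3) with Benjamini-Hochberg adjustment over all genes and a threshold of 0.05, on 16 rat arrays, 14 chimeric arrays or all 30; the code was tested on simulated data. Groups and replicate numbers come from the titles. Every member was described, and at most 5 genes of another list were named per comparison, by adjusted p. The members and lists were chosen with earlier results of these data known.

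Replicate numbers were checked for pairing. Same-numbered arrays of the rat groups had correlations of their deviations from -0.203 to 0.0813, so the numbers do not pair the rat samples. Those of the chimeric groups ran from -0.212 to 0.779, 4 of 7 over 0.1, which leaves pairing there unsettled. The number of arrays limits the precision. Alternatives covered background correction, scaling, filters, spread estimates, blocks, probe averaging, the series matrix and each array left out.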

Additional observations from a re-analysis of the deposited data

Results flagged for a closer look

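The response to PB differed between models, by the test of the difference itself, for 4 members. In CAR KO rats it was lower than in SD rats for Gins1 (-0.95) and Rfc2 (-0.78), where 0.534% of all genes passed. With all 30 arrays in 1 fit neither of the 2 passed. In chimeric livers it was higher than in SD rats for Tk1 (1.07) and Dut (0.72). There 18.8% of all genes passed, a larger share than that of the 27 members, and chimeric diet nearly equals slide.

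In 6 of 153 groups of arrays checked over the 27 tested members, 1 array stood apart from the other 3, and chance gives about 1 in 20. Ccne1 was low on SD control 2 (-4.25, the next array -3.30), and Dut was high on SD control 1 (-0.39, next -0.52). Dut was low on CAR KO control 4 (-0.65, next -0.60), and Rfc3 was low on CAR KO PB 4 (-0.66, next -0.44). CAR KO control 1 was low for Pold1 (-2.32, next -2.08) and for Rpa2 (-2.32, next -2.01).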

How the results depend on the processing

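SD rats gave 8 members called, and 4 with only the arrays compared or with all 30 arrays in 1 fit. Those fits called 1.09% and 1.18% of all genes, against 4.31%. Leaving out 1 array gave 5 to 8. CAR KO rats gave 0, and 0 whichever array was left out. With no filter on dim probes, a setting that keeps genes at background, 1 of 37 was called, against 6.34% of all genes. The CAR KO minus SD response gave 2, and 0 with all 30 arrays in 1 fit, and 2 to 3 without 1 array. The fit of all 30 arrays called 0.219% of all genes there, against 0.534%. Chimeric mice gave 20, and 18 to 21 without 1 array. With slide as a block, or on the slide with both diets (chosen after seeing the data), 1 PB array remained against controls, so no count is given. The members' median was then 0.55, against 0.72 with all 14 chimeric arrays and no block. The chimeric minus SD response gave 2, and 16 after median scaling, 11 with array weights and 5 with the replicate block, and 2 to 4 without 1 array. Slide as a block again left 1 chimeric PB array against controls of its slide, so its count is not given. CAR KO against SD controls gave 6, and 3 with all 30 arrays in 1 fit (12% of all genes, against 34.1%), and 5 to 7 without 1 array. Chimeric against SD controls gave 14, and 12 to 16 without 1 array. In the last comparison directions reversed after normexp for Mcm2 (0.047), Mcm6 (0.34), Gins1 (0.31), Pole (0.23) and Rfc4 (0.21), and for Mcm2 after quantile normalization (0.083) and median scaling (0.13). Counting only members well above background on at least 75% of the arrays of every group compared, chosen after seeing the data, gave 8, 0, 2, 19, 2, 6 and 11 in the order above. The shares of all genes so counted were 4.28, 0.141, 0.514, 40.4, 19.7, 33.8 and 73.6%. For the chimeric minus SD response the share of all genes called was 18.8%. It was 25.4% after median scaling, 37.3% with array weights and 20.8% with the replicate block. Where no cause is named, the cause was not tested. Slide could not be a block in comparisons within or between rat models or on control diet, since slide there equals the model.

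Replicate number was also used as a block, though the correlations do not support pairing in the rat groups. For the chimeric groups they leave it unsettled. The counts of members called with that block follow, with the share of all genes called in brackets. It gave 6 in SD rats (3.27%), 0 in CAR KO rats (0.137%) and 2 for the CAR KO minus SD response (0.365%). In chimeric mice it gave 21 (48.8%), in CAR KO against SD controls 5 (32.2%) and in chimeric against SD controls 16 (76.4%). Each array correlated best with its own number for 1 of 4 pairs in the rat groups and 3 of 7 in the chimeric groups. Dim probes limit the licensing genes, 10 of the 37 members being measured on too few arrays.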

Other observations

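Mitosis genes, which act after S phase, are counted where they were measured on at least 75% of the arrays of every group compared. In SD rats 1 of 10 rose, the spindle kinesin Kif11 (1.03 ± 0.186, adjusted p = 0.00673, measured on 3 of 4 control arrays), and all 10 differences were above 0 (median 0.64). In CAR KO rats limma called 0 of 8, and all 8 were below 0 (median -0.18). Over all 14 tested, measured in every group or not, it also called 0, with 1 at an unadjusted p under 0.05, and for the CAR KO minus SD response 0, with 6. In chimeric livers 3 of 6 rose (median 0.59), among them Cdk1, the kinase that starts mitosis (2.05 ± 0.4, adjusted p = 0.000854). Kif11, Kif20a, Nusap1 and Ube2c passed the filter on dim probes only through the PB group, so their calls are not counted. Over all genes measured in every group compared, 4.28% were called in SD rats, 0.141% in CAR KO rats and 40.4% in chimeric livers. Their medians were -0.01, -0.01 and 0.09.

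Among 12 cyclin-dependent kinase inhibitor and G1 genes, the stress-inducible Gadd45b was the only 1 called in SD rats. It rose there (1.78 ± 0.203, adjusted p = 0.000186). In chimeric livers 3 of the 11 measured in both groups rose and 2 fell. The list's share was near that of all genes measured in both groups, of which 40.4% were called. Cdkn1a, which encodes the inhibitor p21, fell (-0.82 ± 0.154, adjusted p = 0.000627), and the other gene that fell is not named here. Cdk6 (0.89 ± 0.143, 0.00021), Gadd45b (1.59 ± 0.419, 0.00648) and Myc (1.26 ± 0.474, 0.0425) rose. Cdkn2a, another inhibitor, fell in CAR KO rats (-0.60 ± 0.102, adjusted p = 0.0356). In chimeric livers it was measured on 4 of 7 PB and all 7 control arrays and was tested only through the control group, so no difference is given.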
